A study of Rattus norvegicus with 108 samples.

Results

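The 7 genes described here, Nrxn3, Nlgn1, Nlgn2, Nlgn3, Cntn1, Cntnap2 and Lrrc7, encode proteins of the synaptic adhesion machinery and were taken by symbol from the single-cell tables of the rat dentate gyrus. Of these 7, 6 had a row among the 19127 genes of the tables, and Cntnap2 was not analysed here. The animals were male Long-Evans rats, 2 months old at the start, that drank water with fluoxetine at 18 mg/kg (FT) or water alone (Sham) for 6 weeks, with no genetic change in either group. Dorsal (dorDG) and ventral (venDG) dentate gyrus were punched out, tissue of several animals was pooled into each replicate, and the suspensions were sequenced by the 10x 3′ droplet method, which counts unique molecular identifiers (UMIs). There were 4 FT and 5 Sham replicates of dorDG and 5 of each for venDG. The labels speak of nuclei while the study's methods describe both whole-cell and nuclear suspensions, and neither says which droplet reaction held which.

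Neurexins such as Nrxn3 sit in the presynaptic membrane and bind neuroligins across the synaptic cleft, an interaction that helps to organise both sides of the synapse. Nlgn1 is known mainly from excitatory synapses, Nlgn2 from inhibitory synapses and Nlgn3 from both, and neurexins and neuroligins are also made by glia. Lrrc7 encodes densin-180, a scaffold of the postsynaptic density, and Cntn1 encodes contactin 1, a GPI-anchored adhesion molecule of axons and oligodendrocyte lineage cells. Cntnap2, a neurexin-like membrane protein, partners with another contactin at the juxtaparanodes of myelinated axons.

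The tables held 3347 usable cells, 1289 from dorDG and 2058 from venDG, with 220162 to 1523537 UMIs per replicate. Of these cells, 1226 (36.6%) were ribosome-poor, meaning that under 2% of their UMIs fell in 120 cytosolic ribosomal protein genes. Their median ribosomal percentage was 0.654 in dorDG and 0.640 in venDG, against 5.52 and 5.67 in the other cells, and 177 cells lay between 1.5 and 2.5%. Ribosome-poor cells made up 20.3, 42.1, 14.5 and 15.2% of dorDG FT replicates 1, 2, 4 and 5, and 55.7, 51.4, 72, 31.9 and 44.8% of Sham replicates 1 to 5. Cell types of dorDG are the deposited annotation, which markers of astrocytes, oligodendrocytes, OPCs, microglia and endothelial cells matched. Granule cell markers were highest in cells annotated InhibNeuron, inhibitory and mossy cell markers in those annotated ExcitNeuron, and mural cell markers in those annotated Mossy, so these names are used below only as the names of the annotation. A total of 9 cell barcodes occurred in more than 1 reaction (18 cells).

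Nlgn1 and Lrrc7 were the members whose levels in dorDG were called lower in FT over all cells, and their proximal promoters are shown for that reason. RefSeq start sites on the GRCr8 assembly were at hand for 5 of the 7 genes, Nrxn3 and Cntnap2 not among them. The 250 bases upstream of the start, 5′ to 3′ on the minus strand, lie at chr2:110930677-110930926 for Nlgn1 and chr2:250293719-250293968 for Lrrc7, with capitals marking matches on either strand to the CRE half-site TGACG, the E-box CANNTG and the GC box GGGCGG.
Nlgn1: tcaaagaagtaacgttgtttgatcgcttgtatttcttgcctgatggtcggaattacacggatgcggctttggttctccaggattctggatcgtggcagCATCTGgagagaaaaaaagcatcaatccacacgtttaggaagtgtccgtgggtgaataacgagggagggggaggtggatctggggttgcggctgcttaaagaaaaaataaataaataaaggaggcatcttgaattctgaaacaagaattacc
Lrrc7: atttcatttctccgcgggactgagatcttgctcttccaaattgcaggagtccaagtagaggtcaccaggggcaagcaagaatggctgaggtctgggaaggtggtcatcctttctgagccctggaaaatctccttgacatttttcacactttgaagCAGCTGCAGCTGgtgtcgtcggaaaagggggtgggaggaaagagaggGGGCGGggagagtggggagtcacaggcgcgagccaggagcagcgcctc
The Nlgn1 window held 1 E-box and no GC box, had a GC content of 44.4% and contained 10 CpG dinucleotides. The Lrrc7 window held 2 adjoining E-boxes and 1 GC box, with 56% GC and 8 CpGs. Neither held TGACG. Among 33469 promoter windows of this length, 65.5% held an E-box, 30.5% a GC box and 18.2% TGACG, with a median GC content of 51.2% and a median of 5 CpGs. Nlgn2 stood apart from Nlgn1 and Lrrc7 in base composition, with 69.2% GC, 20 CpGs and 3 GC boxes, whereas Nlgn3 (60% GC) held none of these motifs and Cntn1 (50% GC) held 1 E-box. The matches are descriptions of these windows only.

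Members differed in which dorDG cell types carried them. Levels are given as UMIs of the gene per 10000 UMIs of the replicate and type, as the mean ± SD over replicates with at least 5 cells, and they describe the types without a test. Within each gene, every type overlapped in range with the next type in the order. The types also differed in their share of ribosome-poor cells, and the levels that follow are not separated by class. That share was 80% in ExcitNeuron, 79.8% in Granule and 79.6% in InhibNeuron. It was 12.6% in Oligodend2, 11.1% in Mossy, 9.35% in Microglia1 and 7.78% in Endothelial cells.

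Nrxn3, the presynaptic member, was highest in cells annotated ExcitNeuron (4.42 ± 2.90, n = 4), InhibNeuron (3.32 ± 1.19, n = 6) and Granule (2.30 ± 1.57, n = 9). FT replicate 2 held 122 of the 176 UMIs behind the ExcitNeuron mean. It stood at 8.47, against 3.34, 4.21 and 1.67 in Sham replicates 1, 3 and 4. OPCs, the precursors of oligodendrocytes, followed at 1.11 ± 0.553 (n = 7), and Oligodend2 cells were lowest at 0.166 ± 0.165 (n = 7). Pooled within class, Granule cells were no higher than OPCs, with 3.20 against 3.80 in ribosome-poor cells. In the other cells they had 0.249 (3 UMIs) against 0.699. ExcitNeuron stood at 5.27 and 2.31 and InhibNeuron at 4.30 and 1.65 in these classes. After each cell was thinned to 1000 UMIs, a Nrxn3 UMI was found in 31.1% of ExcitNeuron cells, 28.4% of InhibNeuron cells and 1.41% of Microglia1 cells. Microglia1, a type that should lack these neuronal genes, stood for the background of free RNA, and the median depth was 6372, 5846 and 6669 UMIs in these types. Without thinning the percentages were 74.5, 75.5 and 7.48, and thinning left out 2, 0 and 3 cells. Only 10 of the 107 Microglia1 cells were ribosome-poor. Pooled, those stood at 1.61 for Nrxn3 (4 UMIs), 4.84 for Nlgn1 and 3.63 for Lrrc7. The other Microglia1 cells stood at 0.0945, 1.12 and 0.409. The Microglia1 percentages here and below therefore describe mainly the other class. They can be too low a background for types that are mostly ribosome-poor.

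Among the neuroligins, Nlgn1 was detected most widely. Its level was 17.9 ± 9.36 (n = 4) in ExcitNeuron, 16.9 ± 3.95 (n = 6) in InhibNeuron, 11.2 ± 1.95 (n = 7) in OPCs, 9.67 ± 3.06 (n = 8) in AstroSub1 astrocytes and 7.88 ± 4.08 (n = 9) in Granule cells. Mature oligodendrocytes of the Oligodend1 type reached 3.11 ± 1.39 (n = 9), and Microglia1 was lowest at 1.33 ± 0.624 (n = 9). OPCs and astrocytes thus carried Nlgn1 in the same range as the annotated neurons. Pooled within class, ExcitNeuron did not lead. In ribosome-poor cells it stood at 18.7, against 20.6 in InhibNeuron and 19.1 in OPCs. In the other cells it stood at 3.24, against 10.3 in InhibNeuron, 9.12 in OPCs and 5.37 in AstroSub1. At 1000 UMIs per cell, 78.7% of InhibNeuron cells, 64.0% of OPCs, 61.5% of AstroSub1 cells and 12.2% of Microglia1 cells had a Nlgn1 UMI. Without thinning, 98.6, 97.7, 85.5 and 53.3% had 1, at median depths of 5846, 6104, 2317 and 6669 UMIs, and the thinning left out 12 shallow AstroSub1 cells. Nlgn2, the neuroligin of inhibitory synapses, was sparse, with 164 UMIs in all cells used. Its highest mean level was 0.275 ± 0.211 in Granule cells (n = 9, 10 UMIs), and none of its UMIs fell in BergGlia or Microglia2 cells. A count of 0 there allows a level of up to 0.741 per 10000 UMIs in BergGlia and 0.115 in Microglia2, for counting error only. Nlgn3, with 371 UMIs in all, was highest in OPCs (0.539 ± 0.213, n = 7), ExcitNeuron (0.532 ± 0.434, n = 4) and AstroSub1 (0.488 ± 0.389, n = 8) and lowest in Endothelial cells (0.0725 ± 0.0913, n = 9).

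Lrrc7, the postsynaptic scaffold, was highest in InhibNeuron and ExcitNeuron cells. InhibNeuron (9.72 ± 2.98, n = 6) and ExcitNeuron (8.87 ± 2.00, n = 4) led, Granule cells reached 3.75 ± 2.37 (n = 9) and OPCs 2.01 ± 1.33 (n = 7). In Microglia1 the level was 0.516 ± 0.215 (n = 9). Pooled over ribosome-poor cells alone, Lrrc7 stood at 12.6 in InhibNeuron and 10.6 in ExcitNeuron. Granule cells (4.72) were no higher there than Mossy (4.98, 12 UMIs) or Endothelial cells (4.92, 18 UMIs). In the other cells Granule stood at 1.08, against 1.26 in OPCs and 0.904 in Endothelial cells. The thinned share of cells with a Lrrc7 UMI was 65.0% in InhibNeuron and 5.36% in Microglia1, against 96.6 and 24.3% without thinning. Cntn1, the contactin, had another order. OPCs led with 4.48 ± 2.04 (n = 7). InhibNeuron (2.26 ± 0.532, n = 6, 226 UMIs) and BergGlia (2.2 ± 1.17, n = 4, only 8 UMIs) followed. Microglia1 was lowest at 0.193 ± 0.194 (n = 9). A Cntn1 UMI was found at the thinned depth in 36.7% of OPCs, 22.7% of InhibNeuron cells and 1.78% of Microglia1 cells, and without thinning in 80.5, 73.5 and 11.2%.

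**Figure D1:**
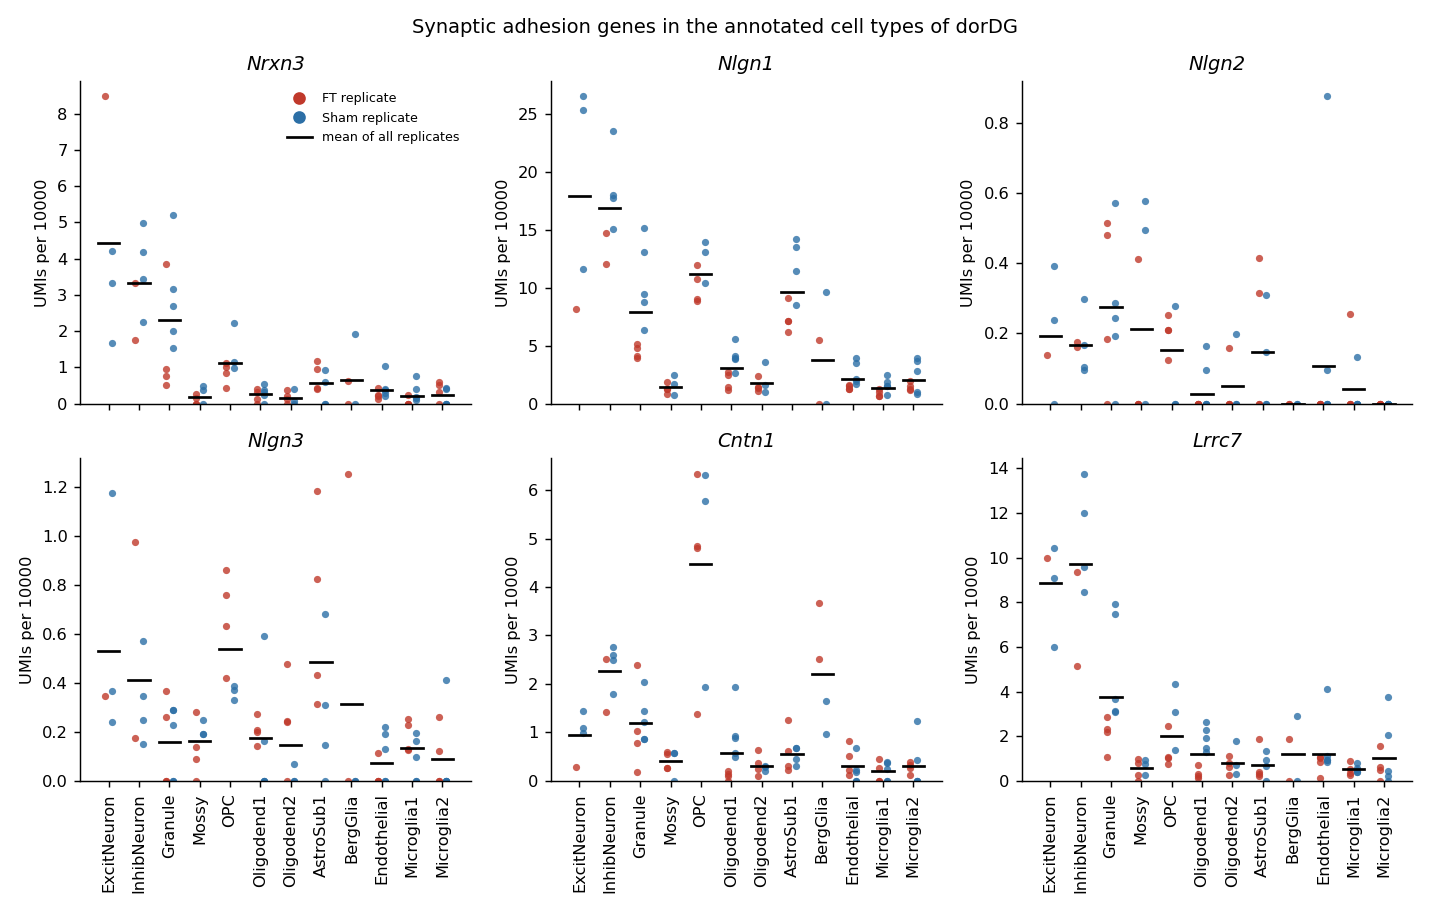
UMIs per 10000 of the 6 members (1 panel each) in the 12 annotated dorDG types, with a point for each FT (red) or Sham (blue) replicate of at least 5 cells and a bar at the mean. Nrxn3, Nlgn1 and Lrrc7 were highest in ExcitNeuron and InhibNeuron cells, whereas Cntn1 was highest in OPCs (4.48 ± 2.04, n = 7).

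Likeness between profiles was measured as Pearson's r of log2(mean UMIs per 10000 + 0.1) over the 12 types, among 8477 genes. The types share their libraries, so these values are descriptions. Closest to Nrxn3 were Gria3 (0.984), an AMPA receptor subunit, Snap25 (0.979), a presynaptic SNARE protein, and Pde7a (0.978). For Nlgn1 they were the unnamed gene ENSRNOG00000050220 (0.981), the adhesion receptor Bai1 (0.977) and the active zone protein Rims2 (0.974). Lrrc7 was closest to the splicing regulator Rbfox1 (0.981), Rimbp2 (0.970) and the postsynaptic scaffold Dlgap2 (0.967). Cntn1 resembled Tnr (0.938), the matrix protein tenascin-R that binds contactin 1, with Fhl1 (0.938) and Bex2 (0.932). For the sparse neuroligins the nearest were Nfkbil1 (0.907), Pde10a (0.899) and Casc3 (0.887) for Nlgn2, and Htt (0.914), Tgfb2 (0.914) and Sybu (0.906) for Nlgn3. Among the members themselves the highest r was 0.943 between Nrxn3 and Lrrc7 and the lowest was 0.281 between Nlgn2 and Cntn1.

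Nrxn3, Nlgn1 and Lrrc7 were far higher in ribosome-poor cells than in the other cells of the same replicate. In dorDG, Nlgn1 had a lowest, median and highest level of 6.55, 15.6 and 20.6 per 10000 UMIs in ribosome-poor cells and 1.86, 3.22 and 4.73 in the others. Lrrc7 had 2.33, 7.99 and 10.1 against 0.626, 1.08 and 1.78, and Nrxn3 had 0.833, 3.04 and 6.41 against 0.149, 0.3196 and 0.558. The classes did not overlap for these 3 genes, and every replicate showed the same order (9 of 9). The share of all genes that separate in this way was not counted, here or where ranges are said not to overlap below. Paired edgeR fits gave log2 differences of 2.62 ± 0.22 (SE) for Nrxn3 (adjusted p = 1.07e-09), 2.198 ± 0.22 for Lrrc7 (1.55e-08) and 1.67 ± 0.21 for Nlgn1 (5.27e-07). The scale of these differences carries a shift, since the median of all genes was 0.17 with TMM scaling and -0.02 with RLE scaling.

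Most genes differ between these classes: edgeR called 85.9% of 4384 genes in dorDG, 46.2% of the genes tested being higher in ribosome-poor cells. The calls of the 3 members are to be read against that share, since they are 3 of 2024 genes called higher. Cntn1 was called as well, at 0.41 ± 0.24 (adjusted p = 0.117), with 0.428, 1.90 and 2.33 as lowest, median and highest level in ribosome-poor cells and 0.223, 0.865 and 2.71 in the others. It was higher in ribosome-poor cells in 7 of 9 replicates. That call was lost with RLE scaling (0.22, adjusted p = 0.416), DESeq2 (0.25, 0.385), no filter (0.20, 0.510), a class boundary of 1% (0.22, 0.386) and without ribosomal and mitochondrial genes (0.30, 0.247). It was also lost without FT replicate 1 (0.28, 0.343), FT replicate 4 (0.23, 0.409), FT replicate 5 (0.33, 0.229), Sham replicate 2 (0.15, 0.540) or Sham replicate 5 (0.35, 0.214). Nlgn2 and Nlgn3 did not reach the minimum level for the test. Nlgn2 averaged 0.248 ± 0.157 in ribosome-poor cells against 0.111 ± 0.143, and Nlgn3 averaged 0.3204 ± 0.214 against 0.245 ± 0.1003 (n = 9).

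Ventral cells had the same members in the same order. In venDG, where 83.2% of 4354 genes were called and 42.9% were higher, Nrxn3 differed by 2.40 ± 0.20 (adjusted p = 5.26e-10), Lrrc7 by 2.15 ± 0.18 (6.25e-10), Nlgn1 by 1.69 ± 0.16 (3.57e-09) and Cntn1 by 0.60 ± 0.17 (0.00314). All 4 were higher in ribosome-poor cells in 10 of 10 replicates. Mean levels in ribosome-poor against other venDG cells were 17.4 ± 6.32 against 3.87 ± 0.701 for Nlgn1, 5.69 ± 1.59 against 0.962 ± 0.313 for Lrrc7 and 1.77 ± 0.530 against 0.264 ± 0.124 for Nrxn3 (n = 10). Ribosome-poor cells held 29.5% of all dorDG UMIs but 79.8% of those of Nrxn3, 76.2% of Lrrc7, 68.1% of Nlgn1, 50.7% of Nlgn2, 44.7% of Cntn1 and 34.5% of Nlgn3.

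**Figure D2:**
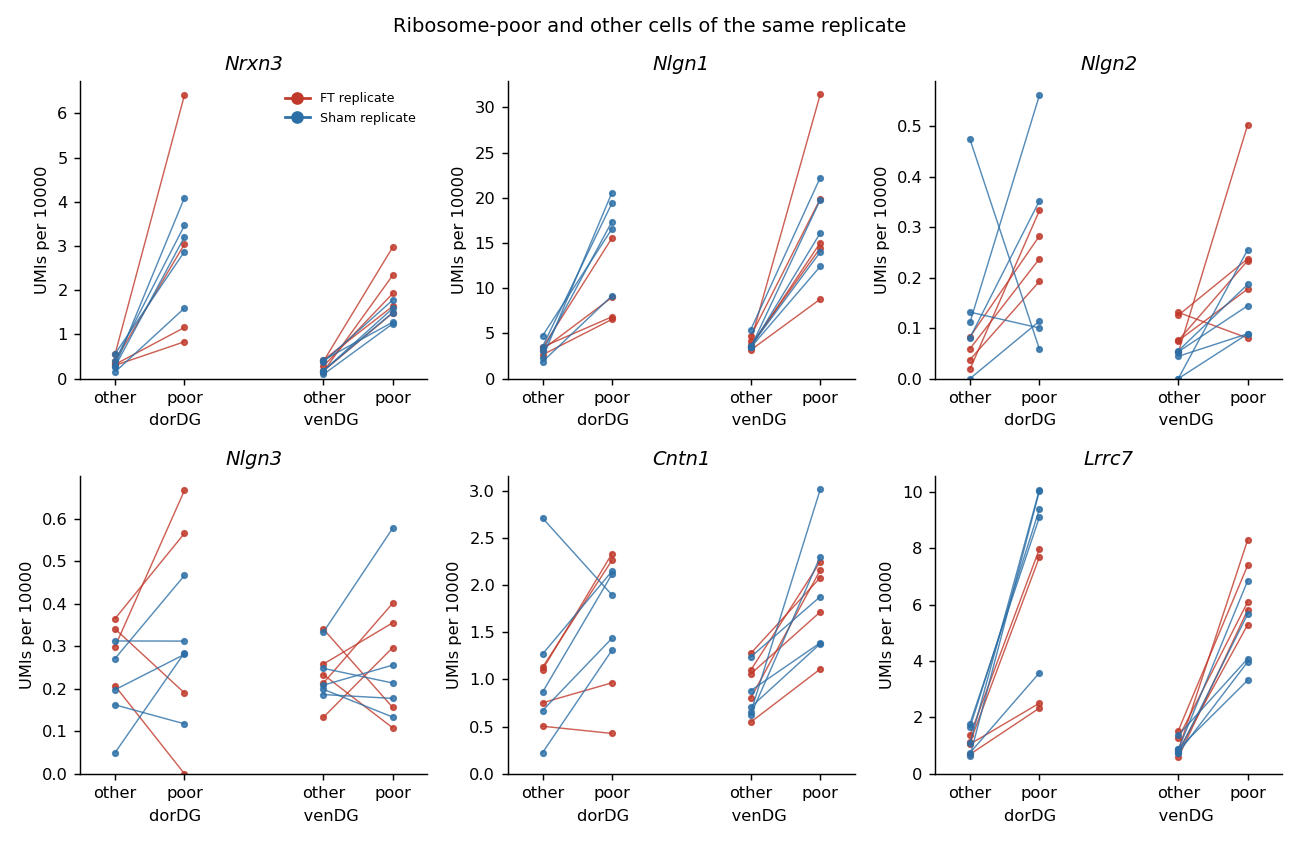
UMIs per 10000 of each member in the other and the ribosome-poor cells of each replicate, joined by a line, for dorDG and venDG. Lines for Nrxn3, Nlgn1 and Lrrc7 rise in 9 of 9 dorDG and 10 of 10 venDG replicates, while those of Nlgn3 rise in 5 of 9 and 5 of 10.

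The classes hold different mixtures of cell types, for example 22.9% InhibNeuron cells among ribosome-poor and 3.86% among other dorDG cells, so the difference was also read within types. Summed over replicates, Nrxn3, Nlgn1 and Lrrc7 were higher in the ribosome-poor cells of 12 of 12 types, Cntn1 in 10, and Nlgn2 and Nlgn3 in 5 each. Nlgn1 stood at 20.6 against 10.3 in InhibNeuron, 19.1 against 9.12 in OPCs, 15.8 against 5.37 in AstroSub1, 9.96 against 3.57 in Granule and 7.37 against 1.85 in Oligodend1. OPCs, the leading Cntn1 type, were an exception for that gene, with 3.93 in ribosome-poor against 5.18 in the other cells.

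Paired tests within types had few replicates. In Oligodend1 (4 replicates), where edgeR called 49.4% of 4251 genes and 17.6% as higher, Lrrc7 was higher by 1.92 ± 0.56 (adjusted p = 0.00329), Nlgn1 by 1.49 ± 0.46 (0.00504) and Nrxn3 by 2.38 ± 1.0 (0.0522). DESeq2 called the first 2 and not Nrxn3 (0.209). In AstroSub1 (6 replicates), 38% of 4460 genes were called and 25% as lower, and the member called was Nlgn3, lower in ribosome-poor astrocytes by -1.92 ± 1.05 (adjusted p = 0.181). That call rests on 2 UMIs in ribosome-poor against 13 in the other astrocytes and was not made by DESeq2. Nlgn1 differed there by 0.58 ± 0.38 (adjusted p = 0.279), with the call not reached.

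Droplet reactions gave much the same picture. In 8 replicates the tables held 2 reactions, and edgeR called 84.2% of 4378 genes between them, 44.2% higher in the second. Nlgn1 averaged 3.48 ± 1.003 in the first reaction and 16.6 ± 7.72 in the second, Lrrc7 1.10 ± 0.477 and 6.51 ± 2.42, and Nrxn3 0.333 ± 0.158 and 3.09 ± 1.77 (n = 8). These 3 were higher in the second reaction by 1.73 ± 0.22 (adjusted p = 4.23e-06), 2.11 ± 0.25 (2.14e-06) and 2.71 ± 0.23 (7.34e-08) on the log2 scale. Cntn1 differed by 0.29 ± 0.23 (adjusted p = 0.263). Reaction and ribosome content cannot be told apart here.

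The central comparison asks how chronic fluoxetine changes expression in the dentate gyrus. Over all dorDG cells, Nlgn1 and Lrrc7 were lower in FT. Nlgn1 stood at 5.71, 4.59, 3.83 and 2.98 UMIs per 10000 in FT replicates 1, 2, 4 and 5 and at 10.5, 4.08, 13.1, 7.71 and 8.46 in Sham replicates 1 to 5. Lrrc7 stood at 2.62, 2.68, 0.857 and 1.18 in FT and at 4.87, 1.61, 7.38, 3.71 and 4.09 in Sham. In both genes Sham replicate 2 was the only control inside the FT range. The log2FC was -0.93 ± 0.31 for Nlgn1 (adjusted p = 0.162, edgeR) and -1.13 ± 0.40 for Lrrc7 (adjusted p = 0.166), both past the study's thresholds of 0.2 for the adjusted p and 0.32 for the size. With the replicate number as a block both fell short of that call, at -0.76 (adjusted p = 0.221) and -0.97 (adjusted p = 0.236), and 0 genes were called, 866 having an unadjusted p under 0.05. Without the block 28.6% of 4274 genes were called, 16.1% as lower, the share against which 2 of 4 tested members is to be read. In summed samples, fewer cells of a type and less RNA per cell cannot be told apart.

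Presynaptic Nrxn3 and the contactin Cntn1 overlapped widely between groups. Nrxn3 stood at 0.900, 1.94, 0.353 and 0.394 in FT and 2.00, 0.587, 2.32, 1.17 and 1.37 in Sham, a log2FC of -0.61 ± 0.45 (adjusted p = 0.345). It was called only without FT replicate 2 (-1.33, adjusted p = 0.179) or Sham replicate 2 (-0.81, 0.185). Cntn1 stood at 1.34, 0.486, 1.23 and 0.771 in FT and 1.66, 0.553, 2.14, 0.871 and 1.26 in Sham, a log2FC of -0.33 ± 0.36 (adjusted p = 0.521). Nlgn2 ranged from 0.0504 to 0.121 in FT and from 0.0346 to 0.230 in Sham. Nlgn3 ranged from 0.188 to 0.403 and from 0.121 to 0.408. Both fell under the minimum level for the test, and without that filter their log2FC was -0.61 ± 0.47 and 0.52 ± 0.33.

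The calls of Nlgn1 and Lrrc7 also depended on single libraries. As with the replicate block, both were lost without FT replicate 4 (log2FC -0.88 and -0.89, adjusted p = 0.385 for each), FT replicate 5 (-0.78 and -0.96, 0.334), Sham replicate 1 (-0.85 and -1.08, 0.280 and 0.281), Sham replicate 3 (-0.78 and -0.89, 0.241 and 0.253) or Sham replicate 5 (-0.96 and -1.17, 0.219), and with no filter on low genes (-0.85 and -1.04, 0.287 and 0.245). The share of ribosome-poor cells moved with treatment, 14.5 to 42.1% in FT and 31.9 to 72% in Sham. Neuronal markers moved too. All 8 of the neuron list and all 5 of the granule cell list were detected in both groups. Their summed level per 10000 UMIs ranged from 7.19 to 12.5 in FT and 8.85 to 28.1 in Sham for neurons, and from 0.689 to 0.994 against 1.28 to 2.53 for granule cells, and the part of these in the result was not tested.

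**Figure D3:**
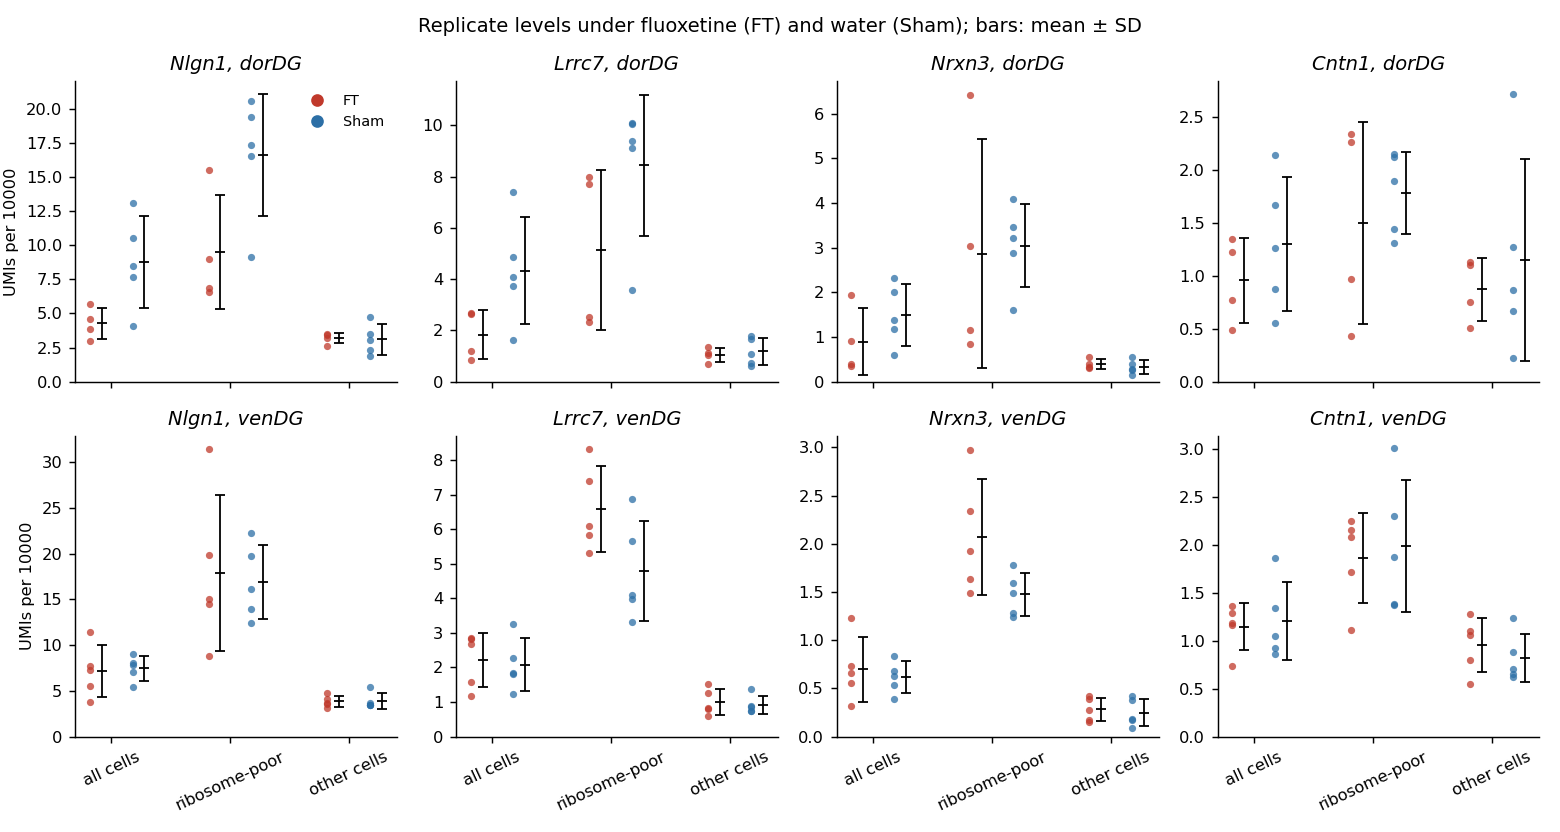
UMIs per 10000 of Nlgn1, Lrrc7, Nrxn3 and Cntn1 in FT (red) and Sham (blue) replicates, for all, ribosome-poor and other cells of dorDG and venDG, with a point for each replicate and bars for the mean ± SD. Over all dorDG cells Nlgn1 averaged 4.28 ± 1.16 in FT (n = 4) and 8.77 ± 3.35 in Sham (n = 5), and in the other dorDG cells 3.19 ± 0.387 and 3.09 ± 1.12.

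Within each ribosome class the difference was smaller or was not seen. In the other dorDG cells, Nlgn1 stood at 3.40, 3.22, 3.50 and 2.63 in FT and 2.29, 1.86, 3.05, 3.52 and 4.73 in Sham, so FT lay inside the Sham range (log2FC 0.04 ± 0.23). Lrrc7 averaged 1.05 ± 0.276 (n = 4) against 1.18 ± 0.522 (n = 5) there, with a log2FC of -0.16 ± 0.31. In ribosome-poor dorDG cells, Nlgn1 stood at 15.6, 8.98, 6.83 and 6.55 in FT and 20.6, 9.16, 17.4, 19.4 and 16.6 in Sham. Only Sham replicate 2 lay among the FT values, and the log2FC of -0.59 ± 0.32 was not called (adjusted p = 0.616). Lrrc7 stood at 7.99, 7.70, 2.33 and 2.51 against 10.0, 3.59, 10.1, 9.11 and 9.40, with a log2FC of -0.46 ± 0.35 (adjusted p = 0.742). Nrxn3 there was 3.04, 6.41, 0.833 and 1.16 in FT, with FT replicate 2 above every Sham replicate, against 1.59 to 4.09 in Sham (0.23 ± 0.38). Cntn1 differed by -0.13 ± 0.39 in ribosome-poor and -0.29 ± 0.51 in the other dorDG cells. edgeR called no member in either class. It called 0.525% of 4379 genes in ribosome-poor cells (DESeq2 56 genes) and 0% of 3800 genes in the others, where 84 genes passed an unadjusted p of 0.05 and DESeq2 called 0. FT ribosome-poor cells held 39.3% of the Nlgn1 UMIs of FT dorDG cells and 16.5% of all their UMIs, and Sham ones held 80.1 and 40.5%.

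By annotated type, the Nlgn1 and Lrrc7 estimates lay below 0 in FT in 12 of 12 dorDG types, from -1.54 to -0.17 for Nlgn1 and from -2.23 to -0.17 for Lrrc7. The types share replicates, so these are not 12 independent results. In every type but ExcitNeuron (80.6 against 79.2%) the share of ribosome-poor cells was lower in FT than in Sham. It was 51.0 against 72.1% in AstroSub1 and 20.8 against 35.9% in OPCs, for example. Both genes were higher in the ribosome-poor cells of 12 of 12 types, and the part of class in these estimates was not tested. With no filter on low genes, both estimates in Microglia2 lay just above 0 (0.038 ± 0.64 for Nlgn1 and 0.0014 ± 0.24 for Lrrc7). edgeR called a member in 1 of the 12, Oligodend1, where 5.98% of 3693 genes were called and 2.84% as lower. Of the remaining types it called 0.0232% of genes in AstroSub1, 0.162% in ExcitNeuron, 0.0581% in Microglia2, 0.029% in Oligodend2 and 0% in the other 7. In those 7, 76 to 775 genes passed an unadjusted p of 0.05, and with DESeq2 0 genes were called except for 204 in InhibNeuron. ExcitNeuron, InhibNeuron and BergGlia cells were so few that replicates with at least 1 cell were used.

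Mature oligodendrocytes of the Oligodend1 type had the largest decreases among the calls. Pooled over FT and Sham, their Lrrc7 level was 3.57 in ribosome-poor and 0.564 in other cells. Microglia1, the background type, had 3.63 (9 UMIs) and 0.409. Cntn1 stood at 0.760 and 0.408 against 0.807 (2 UMIs) and 0.173, and Nlgn1 at 7.37 and 1.85 against 4.84 and 1.12. The part of free RNA in the decreases was not tested. Lrrc7 stood at 0.199, 0.729, 0.136 and 0.288 per 10000 UMIs in FT replicates 1, 2, 4 and 5 (1, 7, 1 and 2 UMIs) and at 1.31, 1.47, 2.66, 1.93 and 2.28 in Sham (16, 8, 9, 8 and 24 UMIs). The groups did not overlap, and the log2FC was -2.23 ± 0.46 (adjusted p = 0.0673, edgeR). Cntn1 stood at 0.199, 0.104, 0.136 and 0 against 0.493, 0.919, 0.886, 1.93 and 0.569, again without overlap, with a log2FC of -2.78 ± 0.74 (adjusted p = 0.120). Only 3 Cntn1 UMIs were found in FT against 28 in Sham, and the ratio of the pooled levels was 0.132 with an exact 95% interval of 0.0257 to 0.428 for counting error. Cntn1 and Lrrc7 passed the minimum level of 0.5 per 10000 through their Sham levels. Pooled, Cntn1 stood at 0.785 in Sham against 0.104 in FT, and Lrrc7 at 1.82 against 0.381. Nlgn1 stood at 1.20, 2.5, 2.73 and 1.44 against 2.63, 3.86, 4.14, 5.55 and 3.98, where Sham replicate 1 lay below FT replicate 4, with a log2FC of -0.90 ± 0.32 (adjusted p = 0.192).

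These calls varied with the fit. DESeq2 and limma called Lrrc7 alone (adjusted p = 0.0975 and 0.134). No member was called without FT replicate 4 (adjusted p = 0.275 for Lrrc7, 0.315 for Cntn1 and 0.349 for Nlgn1) or FT replicate 5 (0.243, 0.313 and 0.417), and Lrrc7 alone was called without FT replicate 1 or Sham replicate 2, 3 or 4, with log2FC from -2.30 to -2.07. Nlgn1 was also lost without Sham replicate 5 (adjusted p = 0.229) and with no filter (0.633). Ribosome-poor cells were 28.1% of FT and 64.5% of Sham Oligodend1 cells. Summed within class, the other cells held 0.192 Lrrc7 UMIs per 10000 in FT (5 UMIs, 46 cells) against 0.947 in Sham (24 UMIs, 38 cells), and the ribosome-poor cells 2.12 (6 UMIs, 18 cells) against 3.97 (41 UMIs, 69 cells). Cntn1 stood at 0.115 against 0.710 in the other cells (3 and 18 UMIs) and at 0 against 0.968 in ribosome-poor cells (0 and 10 UMIs). Nlgn1 differed little in the other cells, 1.73 against 1.97, and its log2FC among them was -0.04 ± 0.45.

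Cells annotated InhibNeuron carried 42.4% of the Nlgn1 UMIs and 54.0% of the Lrrc7 UMIs of dorDG on 16.5% of all UMIs, and they numbered 27 in FT and 120 in Sham. Nlgn1 in them stood at 14.7, 12.02, 7.25 and 6.56 in FT replicates 1, 2, 4 and 5 and at 23.5, 18.0, 15.1 and 17.8 in Sham replicates 1, 3, 4 and 5, Sham replicate 2 holding none of these cells. The groups did not overlap, but the log2FC of -0.76 ± 0.30 was not called (adjusted p = 0.262), in a type where 0% of genes were. Lrrc7 (9.36, 5.13, 6.75 and 6.56 against 13.8, 12.005, 8.45 and 9.60) differed by -0.54 ± 0.28 and Nrxn3 by -0.80 ± 0.44, with adjusted p of 0.330 and 0.348. Without FT replicate 1 or Sham replicate 4 all 3 were called, with adjusted p of 0.155 and 0.136 for Nrxn3, 0.130 and 0.0739 for Nlgn1, and 0.176 and 0.139 for Lrrc7. With the replicate block Nlgn1 (-1.0, adjusted p = 0.00786) and Nrxn3 (-0.97, adjusted p = 0.0815) were called and Lrrc7 was not (-0.46, adjusted p = 0.345), among 953 of 4633 genes. FT and Sham InhibNeuron cells differed in class, 37.0 against 89.2% being ribosome-poor. Pooled within class, Nlgn1 was 13.1 against 21.5 in ribosome-poor cells (10 and 107 cells) and 11.02 against 9.05 in the others (17 and 13 cells).

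Granule cells also had separate Nlgn1 ranges, 4.80, 5.12, 3.93 and 4.12 in FT against 15.2, 8.79, 9.50, 6.37 and 13.1 in Sham, with 71.7 and 84.9% of these cells ribosome-poor. The log2FC of -0.90 ± 0.47 was not called (adjusted p = 0.599), nor was Lrrc7 at -0.96 ± 0.49 (0.598), although its values of 2.88, 2.196, 1.05 and 2.32 in FT lay below 7.93, 3.09, 7.48, 3.67 and 3.14 in Sham. OPCs, which carry Nlgn1 and Cntn1, showed a small Nlgn1 difference, -0.17 ± 0.33, with Cntn1 at -0.10 ± 0.43. OPCs were also the 1 type in which Nlgn3 passed the filter, at 0.94 ± 0.68 (adjusted p = 0.931). FT replicates stood at 0.421 to 0.864 there, and the Sham replicates used at 0.332 to 0.386, under the minimum of 0.5. Astrocytes of AstroSub1 had a Nlgn1 difference of -0.57 ± 0.38.

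**Figure D4:**
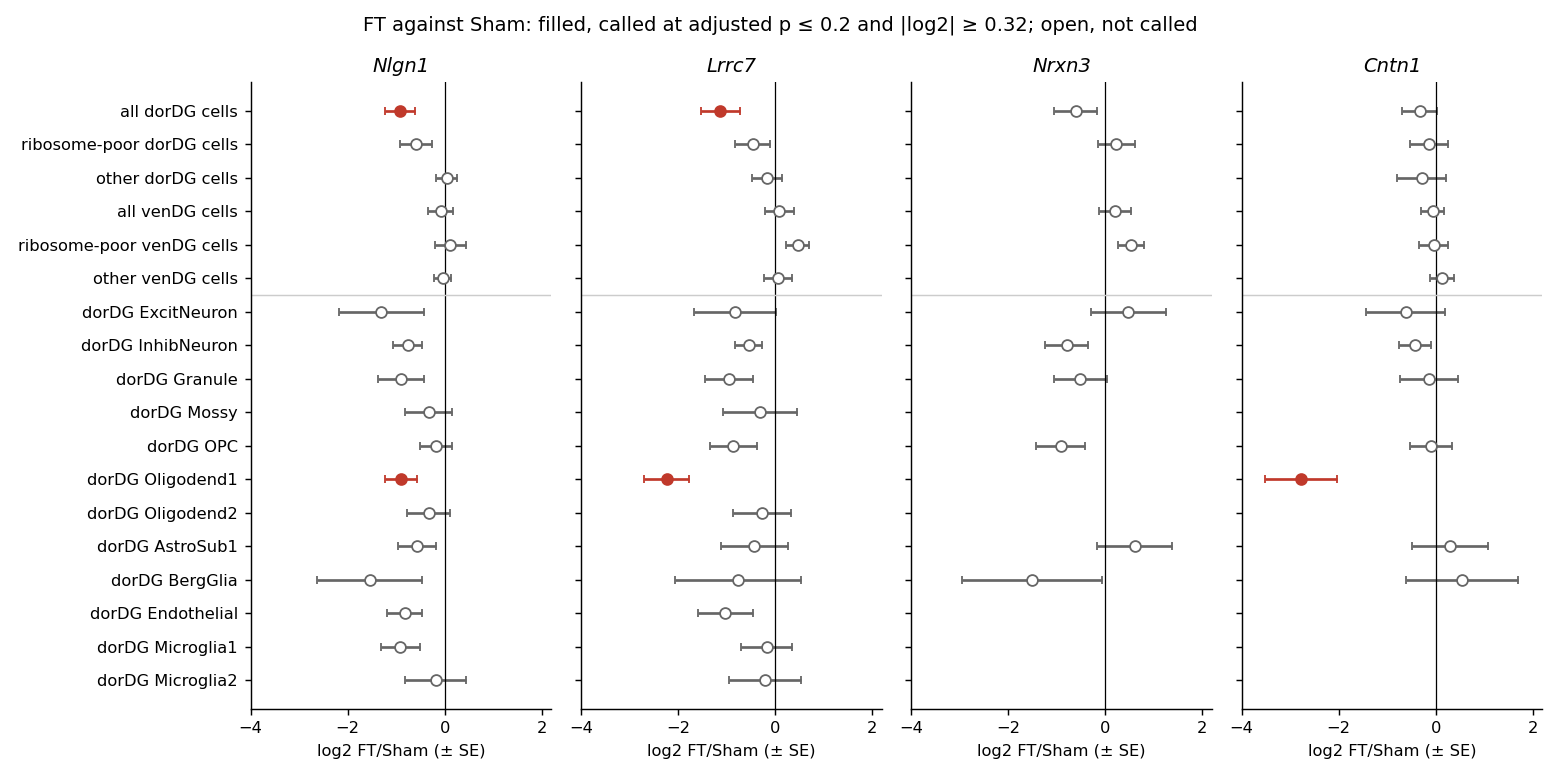
log2FC of FT against Sham with its SE for each member that passed the filter, over all cells, the ribosome classes and the 12 dorDG types, with filled points for calls. Filled points are Nlgn1 and Lrrc7 over all dorDG cells and Nlgn1, Cntn1 and Lrrc7 in Oligodend1, and values for the other dorDG cells lie near 0 for Nlgn1 (0.04 ± 0.23).

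Ventral samples showed no called change in any member. Nlgn1 in venDG stood at 11.4, 7.27, 3.79, 5.54 and 7.67 in FT and at 9.003, 7.07, 8.04, 5.42 and 7.78 in Sham, with the FT spread wider than the Sham spread and a log2FC of -0.08 ± 0.26. Lrrc7 stood at 2.81, 2.85, 1.16, 1.57 and 2.68 against 1.84, 2.27, 3.27, 1.80 and 1.22 (0.09 ± 0.30). Nrxn3 differed by 0.21 ± 0.33 and Cntn1 by -0.06 ± 0.24. edgeR called 0% of 4079 genes, 237 of them with an unadjusted p under 0.05, and DESeq2 called 18. Nlgn2 was under the filter, with 0.172, 0.109, 0.138, 0.123 and 0.107 in FT and 0.0999, 0.0590, 0.0454, 0.0675 and 0.0358 in Sham. These values did not overlap but rest on 18, 15, 21, 9 and 7 UMIs in FT and 11, 4, 1, 6 and 1 in Sham. Without the filter its log2FC was 1.005 ± 0.41, with an edgeR adjusted p of 0.859. In ribosome-poor venDG cells, Nrxn3 (0.53 ± 0.27, p = 0.0695 by edgeR) and Lrrc7 (0.47 ± 0.24, p = 0.0691 by edgeR) had estimates above 0 and were not called. There 0% of 4496 genes were called (249 with an unadjusted p under 0.05, DESeq2 1), and in the other venDG cells 0% of 3698 (191 and 6).

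Whether the fluoxetine difference itself differed between regions was tested as an interaction. For Nlgn1 the dorDG log2FC was lower than the venDG one by -0.91 ± 0.41 and for Lrrc7 by -1.28 ± 0.53, with edgeR p of 0.037 and 0.0253 and an adjusted p of 0.506 for both. Nrxn3 gave -0.87 ± 0.62 and Cntn1 -0.33 ± 0.47. No gene was called, 0% of 4161, while 404 passed an unadjusted p of 0.05 and 8 were called by DESeq2. The difference between regions is therefore not established for any member.

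Between regions, with both treatments fitted, Nrxn3 was the member with the largest estimate, 0.80 ± 0.32 higher in dorDG (edgeR adjusted p = 0.705). Lrrc7 gave 0.41 ± 0.30, Nlgn1 -0.25 ± 0.23 and Cntn1 -0.08 ± 0.23, and edgeR called 0.192% of 4161 genes and no member (DESeq2 45 genes). In ribosome-poor cells alone, where 2.37% of 4439 genes were called, Nrxn3 was called at 0.77 ± 0.25 (adjusted p = 0.190). Its level there was 0.833, 3.04 and 6.41 as lowest, median and highest of 9 dorDG replicates and 1.24, 1.61 and 2.97 of 10 venDG replicates, so the ranges overlapped. Among Sham replicates alone the estimate was 1.17 and among FT replicates alone 0.37.

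Other genes of synaptic adhesion were read from a list of 104 symbols, 96 of them in the tables, covering the remaining neurexins and their ligands, neuroligin regulators, receptor phosphatases and their partners, teneurins, IgLON proteins and scaffolds. Over all dorDG cells, 25 of the 56 tested were called lower in FT and none higher, where 16.1% of all genes were called lower, with a median log2FC of -0.56 against -0.04 over all genes. With the replicate block 0 genes were called, and so none of the 25. Examples were Apba1 (-0.85 ± 0.22), an adaptor of the neurexin complex, the adhesion protein Lrfn5 (-1.39 ± 0.37) and the netrin-G ligand Lrrc4c (-0.82 ± 0.22), each with an adjusted p of 0.155. Within the classes none was called, and the median was -0.13 over 62 genes in ribosome-poor and -0.02 over 47 genes in the other dorDG cells. In Oligodend1, 7 of 44 were called lower, where 2.84% of all genes were, among them the IgLON adhesion protein Lsamp (-1.23 ± 0.33), the scaffold Dlg2 (-1.14 ± 0.32) and the receptor Ntrk3 (-1.55 ± 0.46), with a median of -0.79 against -0.06 over all genes. Ribosome-poor cells were 28.1% of FT and 64.5% of Sham Oligodend1 cells, and the part of this in the 7 calls was not tested. No gene of the list was called in the other 11 types, over all venDG cells, in either venDG class or in the interaction.

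Most of the list was higher in ribosome-poor cells. In dorDG 51 of 58 were higher and 2 lower, where 46.2% of all genes were higher, with a median of 1.38 against 0.17 over all genes, led by the scaffold Dlgap2 (2.52 ± 0.19), Lrfn5 (2.29 ± 0.21) and gephyrin, Gphn (1.90 ± 0.18). In venDG 52 of 58 were higher, where 42.9% of all genes were, with the teneurins Tenm2 (2.62 ± 0.18) and Tenm4 (2.31 ± 0.18) in front. Within Oligodend1 33 of 53 were higher and 1 lower, where 17.6% of all genes were higher. Within AstroSub1 21 of 52 were higher and 2 lower, where 13% of all genes were higher and 25% lower. Between reactions 48 of 58 were higher in the second and 1 lower, where 44.2% of all genes were higher in it. Between regions, Tenm4 was the 1 gene of the 54 tested that was called, where 0.192% of all genes were, lower in dorDG by -1.08 ± 0.25 (adjusted p = 0.140).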

How the data were processed

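Single-cell RNA-seq was performed on FT and Sham dentate gyrus with the 10x 3′ chemistry. The deposited counts are UMIs per gene and cell that the authors made with Cell Ranger, and the deposited per-cell values other than counts are the authors' cell type and sample annotation. The submitters' processing notes name Seurat 3 and the build rn5 without saying what rn5 was used for. The labels list 108 libraries, which the tables join into 27 reactions of 19 replicates. A further 170 venDG columns, of which 167 repeat a barcode already in use, entered no comparison. The replicates of a group differed by more than sampling noise (chi-square per degree of freedom 2.97 to 17.1 over 36 pairs), so none was merged.

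UMIs were summed per replicate, class and type. The quasi-likelihood F-test of edgeR 4.0.16 (R 4.3.3, TMM scaling) was fitted over all genes whose mean level reached 0.5 UMIs per 10000, with Benjamini-Hochberg adjustment. Calls needed an adjusted p no higher than 0.2 and a log2FC of 0.32 or more in size, after the study's rule, and the SE is the log2FC divided by the square root of F. Types were tested over replicates with at least 5 cells where at least 3 per group had them. Class and reaction comparisons had the replicate as a term. Alternatives were DESeq2 1.42.0, limma 3.58.1 on log2(UMIs per 10000 + 0.01), RLE scaling, no filter, the study's cell filters, class boundaries of 1 and 3%, a replicate block and leaving out each replicate. Replicate numbers pair dorDG with venDG, as same-numbered replicates deviated together (correlations 0.101 to 0.566), and that block changed no member's call between regions. The methods state, for tissue collection in general, that FT and Sham samples of a replicate were processed together, so the block is given beside each FT result whose call it changes, although same-numbered FT and Sham replicates did not all deviate together (correlations 0.158, -0.225, 0.371 and 0.0841 in dorDG, -0.155 to 0.269 in venDG).

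The members and lists were chosen with earlier results of these data known. Named genes are the 7 members, the 3 genes most like each of them, and up to 3 genes of the adhesion list with the lowest p in each comparison where any was called. P-values measure the spread between these pooled replicates. Where groups or classes did not overlap, the share of all genes that separate in the same way was not counted. Intervals and limits for a count of 0 cover counting error only. Doublets were not called anew. The scripts were tested on simulated data.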

Additional observations from a re-analysis of the deposited data

Results flagged for a closer look

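In 72 groups of 4 or 5 replicates, 5 values lay apart from the rest of their group, where chance alone gives about 1 in 20. Lrrc7 in the ribosome-poor cells of dorDG Sham replicate 2 was 3.59 UMIs per 10000, against 9.11 to 10.1 in the other Sham replicates. Sham replicate 2 is also the control nearest to FT for Nlgn1 and Lrrc7 over all dorDG cells. In the other cells, Lrrc7 in venDG Sham replicate 2 was 1.37, against 0.744 to 0.875, and Nlgn1 in venDG Sham replicate 5 was 5.42, against 3.44 to 3.62. Nlgn2 in the other cells of dorDG Sham replicate 3 was 0.474 (7 UMIs), against 0 to 0.132. Nlgn3 in the ribosome-poor cells of venDG Sham replicate 4 was 0.578, against 0.133 to 0.256.

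The 170 venDG columns left out of every comparison held more of 4 members than any venDG Sham replicate. Summed over those columns, Nrxn3 stood at 3.77 UMIs per 10000 (highest Sham replicate 0.841), Nlgn1 at 17.3 (9.003), Lrrc7 at 6.22 (3.27) and Nlgn2 at 0.170 (0.0999). The highest venDG FT replicates had 1.23, 11.4, 2.85 and 0.172, so Nlgn2 (5 UMIs in those columns) did not exceed FT. Ribosome-poor venDG cells averaged 17.4 for Nlgn1, 5.69 for Lrrc7 and 1.77 for Nrxn3.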

How the results depend on the processing

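Of 203 values of called members under alternatives, 157 stayed called, 46 kept their direction without a call and 0 reversed. Of 441 uncalled values 43 turned direction and 3 became called. These cover all cells, classes, regions, reactions and Oligodend1, and the cause was not tested.

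Over all dorDG cells 2 members were called, against 0 with no filter and 0 with the replicate block (Nlgn1 -0.76 and Lrrc7 -0.97, adjusted p = 0.221 and 0.236, 0 genes called), and 0 to 3 when a replicate was left out. In Oligodend1, 3 were called, against 1 with DESeq2, 1 with limma, 0 in the other cells alone and 0 to 3 when a replicate was left out. In InhibNeuron 0 became 2 with the replicate block (Nlgn1 -1.0, adjusted p = 0.00786, and Nrxn3 -0.97, 0.0815) and 0 to 3 when a replicate was left out. Between regions 0 became 1 in ribosome-poor cells alone. The 1 call in AstroSub1 classes became 0 with DESeq2. The replicate block changed no other member's call.

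Uncalled FT estimates that turned direction were, with no filter, Nlgn1 0.039 and Cntn1 0.076 over all venDG cells, Cntn1 0.0047 in ribosome-poor venDG and Nlgn1 0.069 in other venDG cells. With limma they were Nrxn3 -0.51 in ribosome-poor dorDG and Nlgn1 -0.019 in ribosome-poor venDG cells. With the replicate block they were Nrxn3 -0.072 in ribosome-poor dorDG, Cntn1 0.27 in other dorDG and Cntn1 0.00066 in ribosome-poor venDG cells. With the boundary at 1% they were Nlgn1 -0.16 (other dorDG) and Lrrc7 -0.21 (other venDG), and at 3% Nlgn1 -0.053 and Lrrc7 -0.011. Between regions, Nlgn1 was 0.13 and Cntn1 0.016 in Sham alone, Lrrc7 -0.26 in FT alone and Cntn1 0.036 in other cells alone.

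Leaving out a replicate gave these ranges where a direction turned. All venDG cells: Nrxn3 -0.16 to 0.41, Nlgn1 -0.29 to 0.080, Cntn1 -0.15 to 0.11, Lrrc7 -0.058 to 0.29. Ribosome-poor dorDG cells: Nrxn3 -0.50 to 0.46, Cntn1 -0.53 to 0.34. Other dorDG cells: Nlgn1 -0.074 to 0.22, Cntn1 -0.54 to 0.15, Lrrc7 -0.33 to 0.040. Ribosome-poor venDG cells: Nlgn1 -0.13 to 0.30, Cntn1 -0.18 to 0.22. Other venDG cells: Nlgn1 -0.10 to 0.10, Cntn1 -0.015 to 0.33, Lrrc7 -0.10 to 0.28. Cntn1 between regions: -0.21 to 0.031.

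Depth limits Nlgn2 (164 UMIs) and Nlgn3 (371 UMIs) most. A 3′ count does not separate isoforms, and the annotation's types rest on few cells per replicate.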

Other observations

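The tables hold a row named Nrxn3.1 beside Nrxn3, with 1598 UMIs against 1367, which the choice by symbol left out. FT against Sham gave -0.55 ± 0.44 over all dorDG cells and 0.34 ± 0.34 over all venDG cells, neither of them called by edgeR, where Nrxn3 gave -0.61 ± 0.45 and 0.21 ± 0.33. Within types the rows differed in size and once in sign, with -0.69 ± 0.70 for Nrxn3.1 against 0.60 ± 0.77 for Nrxn3 in AstroSub1 and -0.11 ± 0.51 against -0.92 ± 0.50 in OPCs, none of them called. Ribosome-poor against other cells gave 2.44 in dorDG and 2.30 in venDG on the log2 scale, against 2.62 and 2.40 for Nrxn3. Between regions Nrxn3.1 gave 0.30 ± 0.32 against 0.80 ± 0.32 for Nrxn3. In ribosome-poor cells, where Nrxn3 was called higher in dorDG, Nrxn3.1 averaged 2.80 ± 1.48 in dorDG (n = 9) and 2.57 ± 1.13 in venDG (n = 10), and Nrxn3 averaged 2.96 ± 1.70 and 1.77 ± 0.530. How reads were split between both rows is not given in the sources used here, so the level of Nrxn3 in either row alone is uncertain.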
